A study of Homo sapiens with 18 samples.

Results

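Cells of the human lung adenocarcinoma line PC9 labelled Tr-BrM S100A9-inh were set against PC9 cells labelled BrM control to find what stayed different from BrM where S100A9 mRNA was lowered. PC9 carries an activating EGFR mutation, and the series design calls the cells derivatives that metastasise to the brain. The comparison used 6 of the 18 libraries of the series, 3 per group, chosen by their labels. All expressed genes entered it: 16169 of the 60605 genes in the PC9 table passed a filter on low counts. The other libraries were 3 PC9 Tr-BrM controls, given beside the comparison, and the same 3 groups of H1650, another EGFR-mutant lung adenocarcinoma line. The S100A9-inh cells differed from the BrM controls both in being Tr-BrM cells and in S100A9 inhibition, and in this contrast these cannot be told apart. The labels used here do not say what Tr stands for, how S100A9 was inhibited, or whether a group's libraries came from 1 clone or from separate cultures. The p-values thus measure the spread among these libraries, and that spread may be technical.

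S100A9 forms the heterodimer calprotectin with S100A8. Released calprotectin is an alarm signal read by TLR4 and the receptor AGER, and it is best known from myeloid cells and inflamed epithelia. Adhesion molecules such as L1CAM and serpins that hold off plasmin have been tied to outgrowth of tumour cells in the brain. Major histocompatibility complex (MHC) genes, which interferon induces, let a cell display peptides to T cells.

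CPM is a gene's count scaled to the TMM-adjusted library total. Summed CPM of marker lists are the exception and are scaled to the plain library total. CPM levels are not scaled to gene length, so they compare libraries and not genes. Changes are log2 fold changes ± standard error (SE), S100A9-inh minus BrM, with n = 3 against 3, and means are given ± SD (n = 3). "Rose" and "fell" are used of genes with an adjusted p below 0.05 in edgeR's quasi-likelihood test over all tested genes. Total counts were 18.17 to 21.75 M per PC9 library. By that rule 46.3% of tested genes changed: 3675 rose (22.7%) and 3814 fell (23.6%), with a median change of 0.004. A change of at least 1 was reached by 7.4% of genes, 4.59% upward and 2.81% downward. The libraries of the groups did not overlap for 8554 genes (52.9%). Tr-BrM controls against the same BrM libraries gave 59.9% called, 29.6% higher and 30.3% lower. S100A9-inh replicate 1 stood apart from its group, with a chi-square per degree of freedom of 5.94 and 5.37 against replicates 2 and 3. Of 10646 genes at 5 CPM or more, 106 were lower and 13 higher in it by 0.5 or more (log2) than in the mean of the others. Without it 7677 genes were called in place of 7489.

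On the first principal component (56.4% of the variance) the S100A9-inh libraries lay at -1.4 to -0.7, the BrM controls at 51.5 to 52.5 and the Tr-BrM controls at -51.2 to -50.4. The next component (22.4%) placed the S100A9-inh libraries at -39.3 to -35.9 and every control library above 0. The labelled cell type was checked against 10 markers. The epithelial genes KRT7, KRT8, KRT18, KRT19, EPCAM and CDH1 and the driver EGFR were present in every group, and the list summed to 26700 to 27200 CPM in BrM and 22700 to 24300 CPM in S100A9-inh libraries. The lung lineage factor NKX2-1, with 3, 8 and 0 counts over the BrM, Tr-BrM control and S100A9-inh groups, and the alveolar protease NAPSA, with 11, 21 and 46, were below the filter. Of the 8 tested markers, 7 fell, with KRT7 at -0.59 ± 0.0353, and the membrane mucin MUC1 rose by 1.78 ± 0.116. In place of 7, 5 fell with upper-quartile scaling and 6 with library size alone.

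S100A9 mRNA was lower in the S100A9-inh libraries than in BrM, while its partner S100A8 and the retinal dehydrogenase ALDH1A1 were higher. S100A9 (ENSG00000163220, GRCh38 chromosome 1, 153357854 to 153361027, forward strand) measured 119, 127 and 119.7 CPM in BrM, 739, 738 and 759 CPM in Tr-BrM control libraries and 33.9, 30.4 and 35.5 CPM with S100A9-inh. Every inhibited library was below every BrM library, with a change of -1.87 ± 0.0492 (edgeR adjusted p = 9.63e-24). In bulk RNA, fewer cells that express a gene and less RNA per cell cannot be told apart. S100A8 (ENSG00000143546, GRCh38 chromosome 1, 153390032 to 153391188, reverse strand) measured 0.245, 0.34 and 0.0464 CPM in BrM, from 13 counts in all, and 0.968, 1.01 and 1.07 CPM with S100A9-inh. It rose by 2.26 ± 0.382 (edgeR adjusted p = 1.21e-05) and stayed far below its level in Tr-BrM controls, 32.2 ± 1.48 CPM. ALDH1A1, which oxidises retinal to retinoic acid, rose from 2.11, 2.28 and 2.18 CPM to 11, 10.8 and 11.6 CPM, by 2.34 ± 0.113, beside 111 ± 3.36 CPM in Tr-BrM controls. The related ALDH1A3 went the other way, from 87.4, 90.3 and 87.7 CPM to 42.4, 42.8 and 37.1 CPM (-1.11 ± 0.0543). ALDH1A3 stood at 88.1 ± 1.84 CPM in Tr-BrM controls, and the S100A9-inh minus Tr-BrM control difference was -1.11 (edgeR adjusted p = 7.47e-17). EGFR measured 979.5, 962 and 984 CPM in BrM, 1390 ± 19.7 CPM in Tr-BrM controls and 902, 951 and 900.1 CPM with S100A9-inh. Its change of -0.09 ± 0.032 (edgeR adjusted p = 0.0251) lost its call under 6 alternative settings, among them leaving out S100A9-inh replicate 3 or BrM control replicate 1 or 3 (edgeR adjusted p from 0.0745 to 0.0892).

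**Figure D1:**
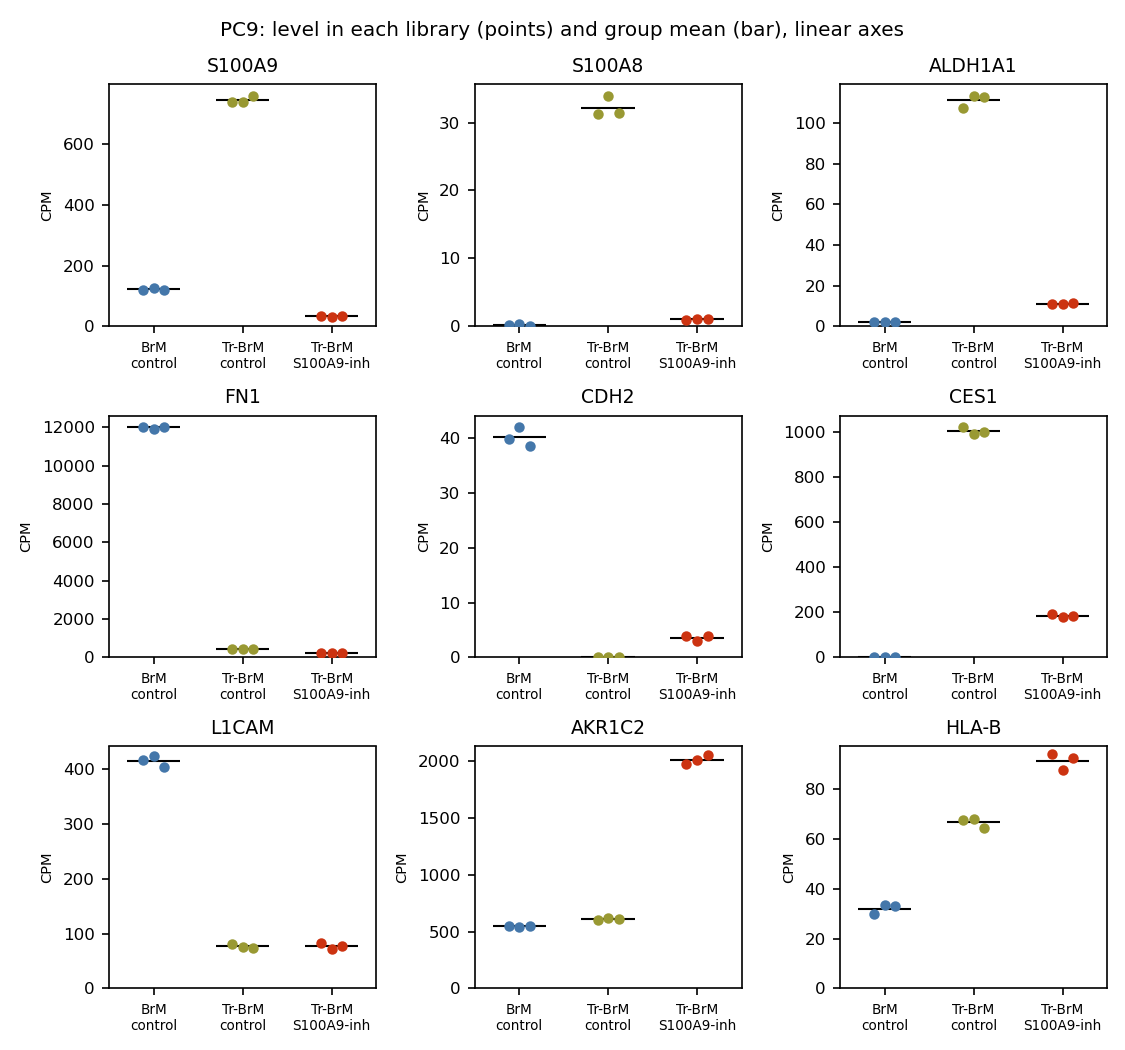
Level in CPM (linear y axes from 0) of 9 genes in each PC9 library (points) with the group mean (bar), in the BrM, Tr-BrM control and S100A9-inh groups of 3 libraries. FN1 and L1CAM were low in both Tr-BrM groups, CES1 and CDH2 lay between the control groups with S100A9-inh, and AKR1C2 and HLA-B lay above both.

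Among genes averaging 5 CPM or more in the higher group, without overlap and leaving out clone and locus names, the 12 largest rises included enzymes, a transporter and epithelial genes with few counts in BrM cells. CES1, a carboxylesterase that cleaves drug and lipid esters (ENSG00000198848, GRCh38 chromosome 16, 55802851 to 55833337, reverse strand), measured 0.147, 0.34 and 0.232 CPM in BrM and 192, 178 and 182 CPM with S100A9-inh, a rise of 9.55 ± 0.0976 (edgeR adjusted p = 9.97e-35). In Tr-BrM controls it reached 1010 ± 15.5 CPM. The amino acid transporter SLC6A14 had 3 counts over the BrM libraries; its level was 504-fold higher, and the 95% counting interval ran from 172 to 2450. SELENBP1, a selenium-binding methanethiol oxidase, had 2 counts there and a 516-fold higher level (interval 143 to 4270). The keratin KRT23 rose by 7.05 ± 0.194 from 7 counts, and the imprinted noncoding RNA H19 by 5.64 ± 0.104, from 0.769 ± 0.0568 CPM to 38.6 ± 1.38 CPM. The others among them were PTCHD1 (5.10), the lysyl oxidase LOXL4 (4.98), CALML5 (4.86), NCCRP1 (4.25), the NAD synthesis enzyme QPRT (4.05), the prostaglandin synthase PTGS1 (3.79) and the cancer-testis antigen gene MAGEA1 (3.69). CALML5, a calmodulin-like gene of differentiating epidermis, was higher with S100A9-inh than in either PC9 control group: 0.354 ± 0.13 CPM in BrM, 0.54 ± 0.108 CPM in Tr-BrM controls and 10.4 ± 1.51 CPM there, with an S100A9-inh minus Tr-BrM control difference of 4.25 (edgeR adjusted p = 1.81e-16). The same difference was 0.10 (edgeR adjusted p = 0.471) for LOXL4 and -0.09 (edgeR adjusted p = 0.39) for NCCRP1, neither past the threshold.

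FN1, fibronectin, a matrix glycoprotein bound by integrins (ENSG00000115414, GRCh38 chromosome 2, 215360440 to 215436172, reverse strand), lost more CPM than any other tested gene. It measured 12020, 11930 and 12020 CPM in BrM and 245, 224 and 220.3 CPM with S100A9-inh, a change of -5.71 ± 0.0397 (edgeR adjusted p = 2.43e-39). Tr-BrM controls had 452, 439.8 and 459 CPM, so the S100A9-inh libraries were farther from BrM than those. The transcription factor TSHZ3 had 339 counts in BrM and 1 with S100A9-inh, 331-fold lower (95% counting interval 58.9 to 13100). CDH2, N-cadherin, a marker of the mesenchymal state (ENSG00000170558, GRCh38 chromosome 18, 27950966 to 28177446, reverse strand), measured 39.8, 42 and 38.6 CPM in BrM, had no count in the Tr-BrM controls, and measured 3.82, 2.95 and 3.81 CPM with S100A9-inh (-3.51 ± 0.106). The transcription cofactor EYA4 was at -4.41 ± 0.15, the semaphorin signalling protein DPYSL3 at -3.86 ± 0.126, the actin bundler LCP1 at -3.31 ± 0.0686, the branched-chain aminotransferase BCAT1 at -3.25 ± 0.0809 and the kinase NUAK1 at -2.95 ± 0.0878. All 5 were lower still in Tr-BrM controls, as in LCP1, with 103 ± 3.48 CPM in BrM, 0.797 ± 0.188 CPM in Tr-BrM controls and 10.4 ± 0.273 CPM with S100A9-inh. C5orf46 (-3.30), the TNF receptor superfamily member TNFRSF19 (-3.14), the histone citrullinase PADI4 (-3.13) and VWA5B2 (-2.93) completed the 12 largest falls under the same limits as the rises.

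By CPM gained, the translation factor EEF1A1 led with 0.42 ± 0.0286, followed by GAPDH (0.37), AKR1C2, HSP90AA1 (0.36), the ferritin light chain FTL (0.74) and lactate dehydrogenase LDHA (0.49). AKR1C2, an aldo-keto reductase that reduces steroids and carbonyls (ENSG00000151632, GRCh38 chromosome 10, 4987400 to 5018031, reverse strand), measured 545, 544 and 548 CPM in BrM, 598, 619.8 and 610.1 CPM in Tr-BrM controls and 1977, 2008 and 2053 CPM with S100A9-inh. Its change was 1.88 ± 0.0322, and the inhibited libraries were above both control groups. Reads of the near-identical AKR1C copies can be split between them. By CPM lost, FN1 was followed by the mitochondrial ribosomal RNA MT-RNR2 (-1.06 ± 0.0584), the actin crosslinker FLNA (-0.64), KRT8 (-0.18), the myosin MYH9 (-0.73) and KRT7. MT-RNR2 spread widely with S100A9-inh, 2639, 3652 and 3221 CPM, against 6609, 6525 and 6722 CPM in BrM.

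TGF-beta and Hippo pathway genes were lower in a larger share than the 23.6% of all genes that fell. Of the TGF-beta response genes (22 tested), 4 rose, 16 fell and 2 did not pass, with a median of -0.53. Tr-BrM controls against the same BrM libraries had 3 risen and 17 fallen, with a median of -0.48. PMEPA1, a membrane protein that dampens TGF-beta signalling, went from 1202, 1180 and 1181 CPM to 427, 422 and 406 CPM (-1.50 ± 0.034). The latent TGF-beta binding protein LTBP2 fell by 1.26, the ligand TGFB2 by 1.25 and the inhibitory SMAD7 by 0.93. TGFBI, a matrix protein, was at -0.09 ± 0.0373 (edgeR adjusted p = 0.047), a call lost under 10 alternative settings, including leaving out S100A9-inh replicate 2 or 3 or any BrM control replicate (edgeR adjusted p from 0.0889 to 0.203). ID2 (2.31), ID1 (0.78), BMP4 (0.34) and BHLHE40 (0.19) rose. ID1 and ID2 are inhibitors of differentiation, and BMP4 is a ligand of the same superfamily. Of the YAP/TEAD targets (19 tested), 3 rose, 14 fell and 2 did not pass, with a median of -0.29. Tr-BrM controls had 7 of them risen and 10 fallen (median -0.17). ANKRD1, a nuclear ankyrin-repeat protein, fell from 27.3, 27.6 and 26.4 CPM to 6.44, 7.01 and 6.88 CPM, tissue factor F3 fell by 1.13, and the coactivator WWTR1 (TAZ) by 0.80, whereas YAP1 rose by 0.21. ANKRD1 and F3 stood at 18.8 ± 1.84 CPM and 392 ± 7.07 CPM in Tr-BrM controls.

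Of the collagens and matrix proteases (17 tested of 24 listed), 3 rose, 11 fell and 3 did not pass, with a median of -0.23. Tr-BrM controls against the same BrM libraries had 4 risen and 10 fallen (median -0.44). The shares over all tested genes, 22.7% risen and 23.6% fallen, stand beside this and the lists below. COL4A2, a basement membrane collagen chain (ENSG00000134871, GRCh38 chromosome 13, 110305812 to 110513209, forward strand), measured 93.6, 98.3 and 95.2 CPM in BrM and 16.4, 15.3 and 15 CPM with S100A9-inh (-2.62 ± 0.0623), and its partner COL4A1 was at -2.08 ± 0.0807. Both were also below their Tr-BrM control levels, 47.8 ± 2.72 CPM and 19 ± 0.923 CPM. The transmembrane collagen COL13A1 was at -2.14 ± 0.155, the metalloprotease ADAM19 at -1.80 ± 0.0657 and the anchoring fibril collagen COL7A1 at -1.42 ± 0.0418, while COL8A1, TIMP3 and COL27A1 rose. Of the integrins and laminins (18 tested of 21 listed), 4 rose, 12 fell and 2 did not pass, with a median of -0.35. Tr-BrM controls had 5 of them risen and 10 fallen (median -0.24). ITGB6 (-1.46), ITGB5 (-0.74) and ITGAV (-0.72), which pair as alpha-v integrins, and ITGB1 (-0.64) fell. The laminin chain LAMB3 rose by 0.71, while LAMA3 fell by 0.49. Of the mesenchymal genes (22 tested of 36 listed), 4 rose, 12 fell and 6 did not pass: FN1, CDH2 and COL5A1 (-0.95) were among those that fell, and LOXL4, the nucleotidase NT5E (0.64), SNAI2 (0.57) and TWIST2 (0.53) rose. Tr-BrM controls had 3 mesenchymal genes risen and 13 fallen. Of 37 epithelial genes, 11 rose, 21 fell and 5 did not pass, with E-cadherin CDH1 at -0.46, P-cadherin CDH3 at -0.71 and the transcription factor ELF3 at 1.44.

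Of the genes of brain metastasis studies (14 tested of 18 listed), 4 rose, 6 fell and 4 did not pass. Over all tested genes 22.7% rose and 23.6% fell. L1CAM, with which metastatic cells spread along brain capillaries (ENSG00000198910, GRCh38 chromosome X, 153861514 to 153886174, reverse strand), measured 417, 424 and 404 CPM in BrM, 81.2, 75 and 73.8 CPM in Tr-BrM controls and 82, 71.7 and 76.8 CPM with S100A9-inh. Its change was -2.43 ± 0.047 (edgeR adjusted p = 5e-27). Both Tr-BrM groups overlapped, and their difference was 0.00 (edgeR adjusted p = 0.957). The anti-plasmin serpin SERPINF2 fell by 1.54 and SERPINE2 by 0.71, the plasminogen activator gene PLAT rose by 0.59, and PLAU fell by 0.35.

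**Figure D2:**
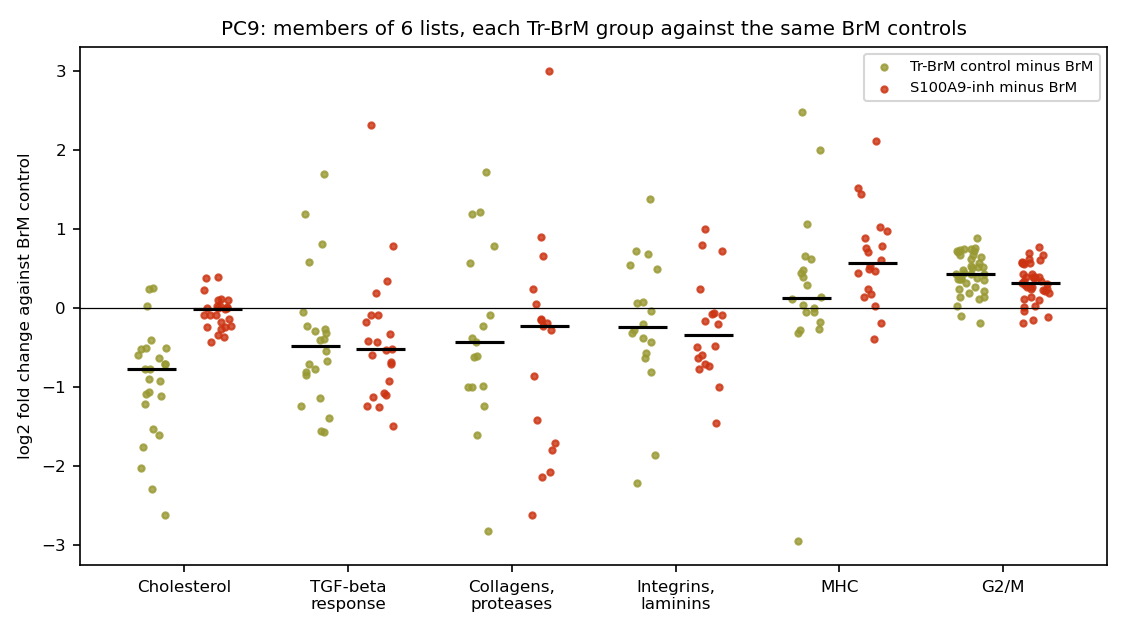
Log2 fold change against BrM (y axis) of every tested member of 6 gene lists, for Tr-BrM control and for S100A9-inh, with the list median as a bar; both use the same BrM libraries. Cholesterol genes had medians of -0.78 in the Tr-BrM controls and -0.02 with S100A9-inh, and MHC genes 0.12 and 0.57.

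Interferon-stimulated and antigen presentation genes were higher with S100A9-inh than in BrM in a larger share than the 22.7% of all genes that rose. Interferon-stimulated products sense viral RNA, and the presentation machinery trims peptides and loads them for display at the surface. The interferon-stimulated response element (ISRE), to which interferon regulatory factors bind, has the core GAAA, any 2 bases, GAAA. It was searched on both strands, overlapping matches joined, in the 250 bases before each RefSeq start (GRCh38.p14). As examples of promoters that hold the core, 4 are shown in the direction of transcription, with matches in capitals: B2M, OAS3 and DDX60 rose, and the change of TAP1 did not pass.
B2M, chr15:44711267-44711516, forward strand: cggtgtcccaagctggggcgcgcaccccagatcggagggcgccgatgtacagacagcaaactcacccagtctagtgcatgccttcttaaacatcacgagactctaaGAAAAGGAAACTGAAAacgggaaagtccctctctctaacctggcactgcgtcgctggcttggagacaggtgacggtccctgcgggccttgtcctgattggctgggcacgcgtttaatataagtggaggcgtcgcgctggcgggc
TAP1, chr6:32853705-32853954, reverse strand: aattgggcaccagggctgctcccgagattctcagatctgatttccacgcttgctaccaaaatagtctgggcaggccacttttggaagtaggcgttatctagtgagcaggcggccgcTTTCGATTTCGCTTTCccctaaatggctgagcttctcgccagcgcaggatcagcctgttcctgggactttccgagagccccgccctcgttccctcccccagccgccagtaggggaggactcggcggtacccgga
OAS3, chr12:112938224-112938473, forward strand: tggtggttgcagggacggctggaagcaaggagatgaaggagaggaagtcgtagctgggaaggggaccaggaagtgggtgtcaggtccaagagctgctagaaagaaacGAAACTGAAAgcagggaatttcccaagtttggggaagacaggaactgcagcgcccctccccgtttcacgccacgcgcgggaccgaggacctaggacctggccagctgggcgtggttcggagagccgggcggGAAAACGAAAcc
DDX60, chr4:168318753-168319002, reverse strand: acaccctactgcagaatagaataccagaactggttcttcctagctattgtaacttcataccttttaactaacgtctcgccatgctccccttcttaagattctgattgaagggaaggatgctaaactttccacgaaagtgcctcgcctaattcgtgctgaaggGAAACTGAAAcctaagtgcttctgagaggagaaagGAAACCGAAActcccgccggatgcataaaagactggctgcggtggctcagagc
The core was present in 3.02% of 35116 promoters of this length and in 2.33% of the 16290 promoters of genes tested here. It was present in 18 of the 29 interferon list promoters in the table (62.1%) and in 6 of 16 MHC list promoters (37.5%). The lists took 1 promoter per gene, the first listed, whereas the shares before them count every promoter entry. A list gene counted as without the core may thus hold it in another promoter. Of the interferon genes with the core 11 rose, 1 fell and 6 did not pass, and of those without it 7 rose, 1 fell and 3 did not pass. Of the MHC genes 5 of 6 with the core and 8 of 10 without it rose; HLA-B was among those without it.

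Of the MHC class I and II presentation genes (20 tested of 25 listed), 15 rose and 5 did not pass, with a median of 0.57. In Tr-BrM controls, against the same BrM libraries, 11 rose and 5 fell, with a median of 0.12. Without S100A9-inh replicate 1, 14 rose and 1, HLA-DMA, fell. HLA-B, a class I heavy chain (ENSG00000234745, GRCh38 chromosome 6, 31269491 to 31357188, reverse strand), measured 29.7, 33.4 and 33.1 CPM in BrM, 67.5, 68 and 64.6 CPM in Tr-BrM controls and 94, 87.8 and 92.7 CPM with S100A9-inh, a rise of 1.51 ± 0.0559 (edgeR adjusted p = 5.19e-20). The inhibited libraries were above both control groups. Reads of near-identical HLA genes can be split between them. Beta-2 microglobulin, B2M, the class I light chain, rose from 184, 199.9 and 189 CPM to 255, 264 and 267 CPM (0.46 ± 0.0393). The immunoproteasome subunit PSMB9 rose by 0.97 ± 0.0721, the peptide trimming enzyme ERAP2 by 0.88 and the class I transactivator NLRC5 by 0.78 ± 0.066. The peptide transporter subunit TAP1 measured 38.8, 39.1 and 36.8 CPM and 44.3, 42.3 and 39.2 CPM, a difference of 0.13 that did not pass, while its partner TAP2 rose by 0.44.

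Of the type I interferon response genes (36 tested of 48 listed), 23 rose, 2 fell and 11 did not pass, with a median of 0.55, and in Tr-BrM controls 13 rose and 14 fell (median -0.01). Without S100A9-inh replicate 1 the counts were 25 and 2. OAS3, an RNA-activated synthetase, measured 40.2, 41.5 and 41.2 CPM in BrM, 47.8, 49.5 and 49 CPM in Tr-BrM controls and 87.6, 82.7 and 76.2 CPM with S100A9-inh (edgeR adjusted p = 1.47e-15). The helicase DDX60 rose by 1.25 ± 0.129, the membrane protein IFITM3 by 0.79 ± 0.0669, the ADP-ribosyltransferase PARP14 by 0.74 and the transcription factor IRF1 by 1.13 ± 0.12. DDX60 and IFITM3 were also higher in Tr-BrM controls than in BrM, by 1.31 and 0.91. Their S100A9-inh minus Tr-BrM control differences, -0.05 (edgeR adjusted p = 0.72) and -0.12 (edgeR adjusted p = 0.127), did not pass. For PARP14 that difference was 0.63 (edgeR adjusted p = 1.15e-09). STAT2 fell by 0.55 and EPSTI1 by 1.10. Tetherin, BST2, which holds budding virus at the membrane, stood at 25.4 ± 1.31 CPM in BrM, 2.85 ± 0.496 CPM in Tr-BrM controls and 39.6 ± 2.25 CPM with S100A9-inh.

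Of the NF-kappaB and cytokine genes (30 tested of 37 listed), 16 rose, 5 fell and 9 did not pass, with a median of 0.35. Tr-BrM controls had 18 of them risen and 8 fallen (median 0.70). Over all tested genes 22.7% rose and 23.6% fell with S100A9-inh. TNFAIP3, the A20 brake on NF-kappaB, went from 10.8, 12.2 and 12 CPM to 36.8, 38.5 and 43.9 CPM (1.76 ± 0.0789), and the iron-scavenging lipocalin LCN2 rose by 1.38 ± 0.0462. The NF-kappaB subunits RELA (0.03) and NFKB1 (-0.01) did not pass. IL1B, a cytokine of inflammasome signalling, fell by 3.65, but did not meet the limits on level and overlap set for the largest falls. The others that fell were CCL28 (-1.51), PTGS2 (-0.98), CXCL1 (-0.98) and LIF (-0.93). Of the complement and acute phase genes (10 tested of 21 listed), 6 rose, 2 fell and 2 did not pass: the secreted glycoprotein LRG1 rose by 2.43 ± 0.119, complement factor D, CFD, by 1.62 and the complement inhibitor CD55 by 1.11. Without S100A9-inh replicate 2, 1 in place of 2 fell.

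Mitotic and ribosomal protein genes rose in small steps. Of the G2/M genes (39 tested of 40 listed), 31 rose, 2 fell and 6 did not pass, with a median of 0.31, and 1 in place of 2 fell without any single BrM control replicate. Tr-BrM controls against the same BrM libraries had 34 risen and 1 fallen, with a median of 0.43. Cyclin B1, CCNB1, went from 227, 228 and 233 CPM to 396, 378 and 398 CPM (0.77 ± 0.0361), and the cytokinesis protein ANLN rose by 0.69, the kinesin KIF20A by 0.62 and the anaphase activator CDC20 by 0.56. Of 48 DNA replication genes, 19 rose, 10 fell and 19 did not pass (median 0.06). In place of 10, 5 fell without S100A9-inh replicate 3, without BrM control replicate 2 or with upper-quartile scaling, and 6 without S100A9-inh replicate 2. Of 22 p53 targets, 4 rose, 7 fell and 11 did not pass: the cell cycle inhibitor CDKN1A (p21) went from 82.7, 86.8 and 84.4 CPM to 40.8, 36.6 and 37.3 CPM (-1.15 ± 0.059), and the stress cytokine GDF15 rose by 1.47. Of the cytosolic ribosomal protein genes (78 tested of 80 listed), 60 rose, 5 fell and 13 did not pass, with a median of 0.27 and RPS6 at 0.47. Tr-BrM controls had 43 of these genes risen and 14 fallen (median 0.11). Processed pseudogenes, many of them copies of such genes that can take their reads, rose in 15.5% of 683 and fell in 3.37%, both below the shares of all tested genes, 22.7% and 23.6%. Their median was nonetheless 0.22, above the 0.004 of all tested genes, with 106 risen and 23 fallen. How far shared reads enter the ribosomal changes was not tested. Of the 13 mitochondrially encoded protein genes, 11 fell and 2 did not pass, with a median of -0.21 and the complex I subunit MT-ND1 at -0.45. Tr-BrM controls had 7 of them risen and 3 fallen (median 0.15).

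Of 25 cholesterol synthesis and uptake genes, 4 rose, 10 fell and 11 did not pass, with a median of -0.02, beside 22.7% risen and 23.6% fallen over all tested genes. Those that passed lay between -0.44, for mevalonate kinase MVK, and 0.39, for the sterol reductase TM7SF2. Without BrM control replicate 1 or 3, 2 in place of 4 rose. In Tr-BrM controls 2 rose and 22 fell against the same BrM libraries, with a median of -0.78. INSIG1, a sterol sensor that holds SREBP in the endoplasmic reticulum, stood at 106 ± 2.12 CPM in BrM, 21.6 ± 1.16 CPM in Tr-BrM controls and 82 ± 5.45 CPM with S100A9-inh (-0.37 ± 0.0514). Lanosterol synthase, LSS, stood at 134 ± 4.53 CPM, 43.8 ± 2.06 CPM and 135 ± 8.43 CPM in the same order, a difference from BrM of 0.02 ± 0.0478 (edgeR adjusted p = 0.819). Of the fatty acid genes (28 tested of 30 listed), 14 rose, 4 fell and 10 did not pass, with the synthase FASN at 0.27 and acetyl-CoA carboxylase ACACA at 0.42.

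Of 35 hypoxia and glycolysis genes, 17 rose, 9 fell and 9 did not pass. The shares over all tested genes, 22.7% risen and 23.6% fallen, stand beside this and the lists below. NDRG1, a gene of hypoxia and differentiation, measured 47, 47 and 44.3 CPM in BrM, 37.9 ± 0.927 CPM in Tr-BrM controls and 141, 132 and 132 CPM with S100A9-inh (1.55 ± 0.0502). The oxygen sensor EGLN3 rose by 1.65, VEGFA did not pass (0.06) and the glucose transporter SLC2A3 fell by 0.90. Of the NRF2 and xenobiotic genes (34 tested of 36 listed), 17 rose, 10 fell and 7 did not pass: beside AKR1C2 and CES1, the glutathione synthesis gene GCLC rose by 1.14, and the glutathione peroxidase GPX2 fell by 1.05. Of the unfolded protein and integrated stress genes (32 tested of 33 listed), 15 rose, 12 fell and 5 did not pass, with the transcription factor ATF3 at 1.62, the pseudokinase TRIB3 at -0.77 and the chaperone HSP90B1 at -0.56. Of 21 heat shock genes, 11 rose, 3 fell and 7 did not pass, with the constitutive chaperone HSPA8 at 0.50, and 1 in place of 3 fell with upper-quartile scaling.

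Of the receptors and adaptors of S100A8 and S100A9 (10 tested of 13 listed), 3 rose, 5 fell and 2 did not pass. The shares over all tested genes, 22.7% risen and 23.6% fallen, stand beside this and the lists below. TLR4 measured 19.7, 19.6 and 20.9 CPM in BrM, 0.273 ± 0.182 CPM in Tr-BrM controls and 5.18, 6.13 and 6.71 CPM with S100A9-inh (-1.74 ± 0.117), AGER fell by 1.20, and CD14, which hands ligand to TLR4, rose by 1.80 from a level of 0.979 ± 0.164 CPM. Of the other S100 genes (13 tested of 16 listed), 1 rose, 7 fell and 5 did not pass, with S100A14 at -0.40 and S100P at 0.30, and 4 fell with upper-quartile scaling or DESeq2. Of the retinoid genes (20 tested of 24 listed), 8 rose, 4 fell and 8 did not pass: the retinoic acid carrier CRABP2 rose by 0.69 and the retinol importer STRA6 fell by 0.60. Without S100A9-inh replicate 2, without BrM control replicate 2 or with DESeq2, 5 in place of 8 retinoid genes rose.

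Of the EGFR family members, ligands and brakes (18 tested of 19 listed), 2 rose, 7 fell and 9 did not pass, and 4 rose with upper-quartile scaling. The shares over all tested genes, 22.7% risen and 23.6% fallen, stand beside this and the lists below. The ligand TGFA went from 99.5, 96.8 and 94.8 CPM to 59.4, 65.9 and 61.7 CPM (-0.64 ± 0.0493), with 97 ± 2.65 CPM in Tr-BrM controls. Of 23 MAPK output genes, 9 rose, 9 fell and 5 did not pass: the ephrin receptor EPHA4 fell from 113, 114 and 114 CPM to 28.7, 26.5 and 27.9 CPM (-2.03 ± 0.051), beside 107 ± 1.27 CPM in Tr-BrM controls, and the early response factor EGR1 rose by 1.60. Of the bypass receptor kinases and partners (18 tested of 24 listed), 8 rose, 8 fell and 2 did not pass. FGFR1 rose from 7.94, 7.39 and 6.32 CPM to 27, 26.6 and 26.2 CPM (1.88 ± 0.0894), while FGFR2 had 125 counts over the BrM libraries and 3 with S100A9-inh, and ROR1 fell by 1.34. AXL, a kinase often named in EGFR inhibitor resistance, was at -0.23 ± 0.0732 (edgeR adjusted p = 0.0114), with 29.8 ± 0.39 CPM in BrM, 8.39 ± 0.663 CPM in Tr-BrM controls and 25.4 ± 1.68 CPM with S100A9-inh.

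Of the alveolar and airway genes (14 tested of 31 listed), 8 rose, 3 fell and 3 did not pass. The shares over all tested genes, 22.7% risen and 23.6% fallen, stand beside this and the lists below. Mesothelin, MSLN, a surface glycoprotein bound by MUC16, went from 9.76, 8.46 and 9.43 CPM to 44.3, 43.7 and 43.6 CPM (2.25 ± 0.0689), the airway mucin MUC5B rose by 2.94 and MUC16 by 1.34, while MUC4 fell by 2.38. MSLN, MUC5B and MUC16 were higher still in Tr-BrM controls, at 128 ± 3.77 CPM, 112 ± 9.36 CPM and 396 ± 17.9 CPM. Of the squamous and stratified epithelium genes (23 tested of 32 listed), 8 rose, 7 fell and 8 did not pass: the serpin SERPINB5 (maspin) fell from 128, 130.5 and 132 CPM to 35.5, 36.3 and 39.1 CPM (-1.82 ± 0.052), with 107 ± 5.54 CPM in Tr-BrM controls, and KRT23 rose. Of the HOX genes (20 tested of 39 listed), 6 rose, 6 fell and 8 did not pass. Of the Wnt and Notch genes (32 tested of 34 listed), 10 rose, 8 fell and 14 did not pass, with the Notch ligands JAG1 at -1.19 ± 0.0521 and JAG2 at 0.86 ± 0.0608. Of the BCL2 family genes (15 tested of 16 listed), 3 rose, 8 fell and 4 did not pass, and 5 in place of 8 fell without S100A9-inh replicate 2 or BrM control replicate 1. Of the clustered protocadherins (8 tested of 60 listed), 3 rose, 1 fell and 4 did not pass.

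**Figure D3:**
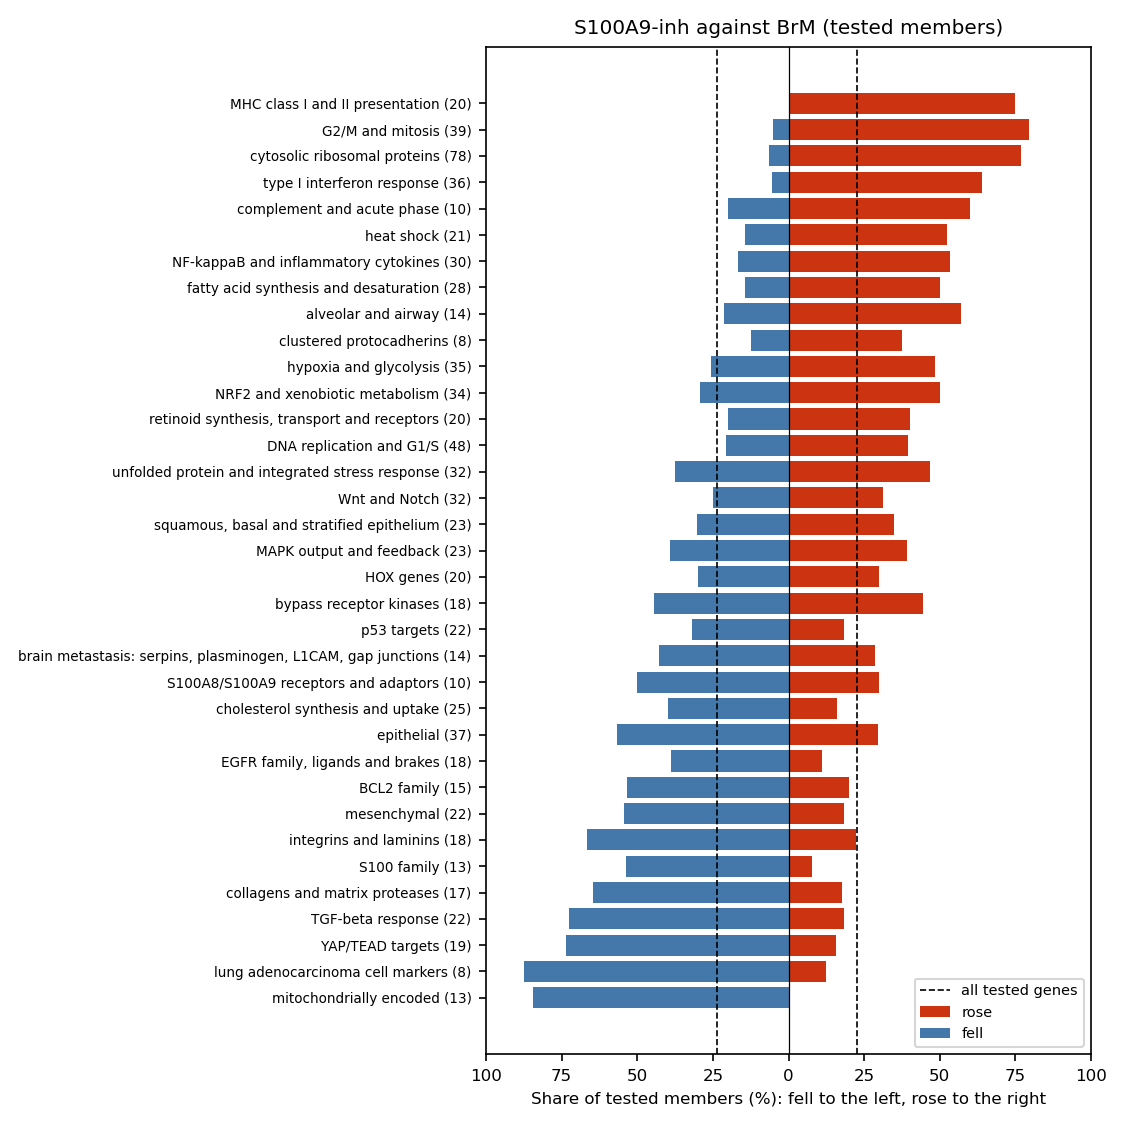
Share of tested members (x axis, %) that rose (right) or fell (left) in S100A9-inh against BrM, for each gene list with at least 8 tested members (number tested in parentheses). Dashed lines mark the shares over all tested genes, 22.7% and 23.6%; the MHC, G2/M and ribosomal lists pass the right line, and the mitochondrially encoded, YAP/TEAD and TGF-beta lists the left one.

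The changes were not spread evenly over the genome. Medians were taken over 257 windows of 10 Mb with at least 20 tested genes, and the regions below were chosen after those medians were seen, so they are descriptions. Windows ran from -0.76 to 0.47, with 19 at -0.25 or below and 12 at 0.25 or above. On chromosome 18 from 20 Mb on, 120 of 157 tested genes fell (76.4%) and 3 rose, with a median of -0.57, and of -0.44 in Tr-BrM controls. The S100A9-inh libraries, each set against the mean of BrM, had medians of -0.54, -0.51 and -0.49 there. The first 20 Mb of that chromosome had a median of 0.24. On the first 30 Mb of chromosome 20, 95 of 149 genes fell (63.8%), with a median of -0.38, against 0.17 in Tr-BrM controls; from 30 Mb on the medians were -0.22 and -0.24. On the first 40 Mb of chromosome 7, 134 of 204 genes rose (65.7%), with a median of 0.41, against 0.16; from 60 Mb on it was 0.03. Genes named here that lie in these regions are CDH2, SERPINB5, SMAD7, LAMA3, the endothelial lipase LIPG (-1.89 ± 0.0433) and MBP (-0.37) on chromosome 18, JAG1, TRIB3 and MCM8 (-0.82) on the first 30 Mb of chromosome 20, PMEPA1, ID1, BCL2L1 (-0.32) and PTPN1 (-0.47) on the rest of it, and ANLN and HOXA3 (0.57) on chromosome 7. ID1 rose, by 0.78, against the median of its region, and the others had the sign of theirs. Windows with like medians lay on other chromosomes too. Chromosome 3 had -0.39 at 190 to 200 Mb, 17 had -0.38 at 0 to 10 Mb and 13 had -0.31 at 110 to 120 Mb. Chromosome 5 had 0.34 at 60 to 70 Mb and 0.33 at 90 to 100 Mb. Chromosome 14 had 0.32 at 100 to 110 Mb. MUC4, SERPINF2, COL4A2, CCNB1, ERAP2, HSP90AA1 and JAG2 are among the named genes that lie in these windows. The part of the region in all these changes was not tested. In H1650 the medians were -0.25 for the first 20 Mb of chromosome 18 and 0.46 for the rest of it. They were -0.02 for the first 30 Mb of chromosome 20 and 0.28 for the rest of it. On the first 40 Mb of chromosome 7 the H1650 median was -0.12.

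**Figure D4:**
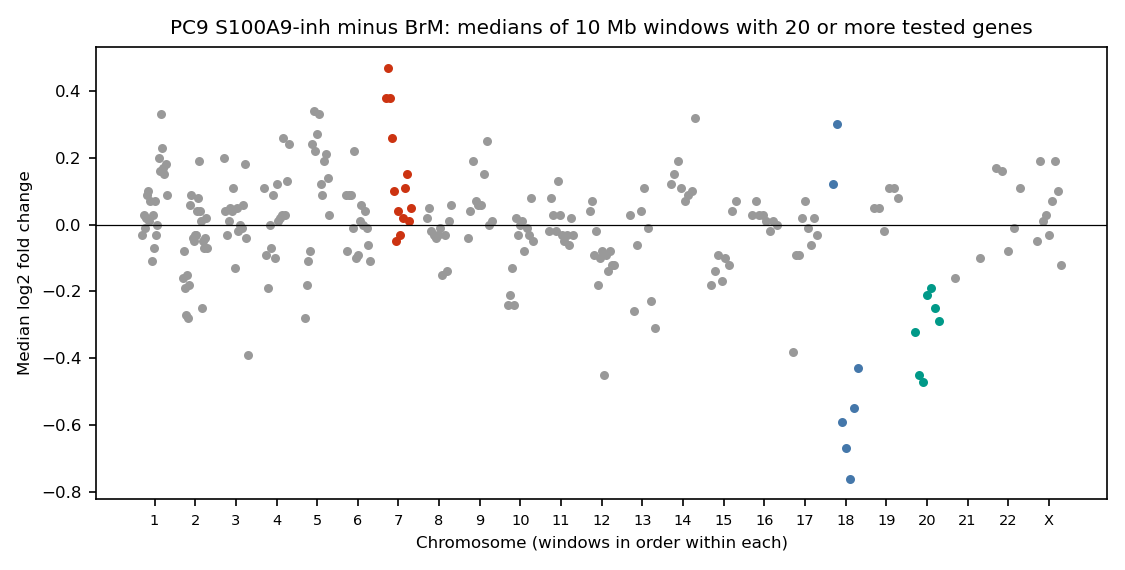
Median log2 fold change, S100A9-inh minus BrM (y axis), of each 10 Mb window with at least 20 tested genes, in order along the chromosomes (x axis); chromosomes 7 (red), 18 (blue) and 20 (green) are coloured. The lowest window, -0.76, lies on chromosome 18 and the highest, 0.47, on chromosome 7.

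The same contrast in H1650 shares no library with PC9. There 63.6% of 17937 tested genes changed, 32.5% upward and 31.2% downward. The difference between lines passed for 50.2% of 19076 genes in 1 model of all 18 libraries, 26% higher and 24.3% lower in PC9. Over 14888 genes tested in both lines, 986 rose in both, which is 28.7% of the PC9 rises and 21.6% of those in H1650, and 1152 fell in both (31.4% and 22.4%). Opposite directions were seen for 1499 genes that rose in PC9 and fell in H1650 (43.7% and 29.2%) and 1531 that fell in PC9 and rose in H1650 (41.8% and 33.5%). Of all 14888 genes, 30.7% rose and 34.5% fell in H1650. The shares of PC9 calls with the same direction in H1650 were thus below these, and those with the opposite direction above them. Interferon and MHC genes mostly fell in H1650, where cholesterol genes mostly rose. Of the interferon genes, 4 of 47 rose and 40 fell in H1650, with a median of -1.04, and the difference was higher in PC9 for 38 of 48. OAS3 went from 628 ± 10.3 CPM to 324 ± 10.3 CPM in H1650, and its difference between lines was 1.96 ± 0.0591 (edgeR adjusted p = 5.4e-28). Of 22 MHC genes tested in H1650, 5 rose and 17 fell, and the difference was higher in PC9 for 17 of 23. Of 24 cholesterol genes 21 rose in H1650, and the difference was lower in PC9 for 19 of 25.

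FN1 rose by 2.20 ± 0.0292 in H1650, from 825 ± 18.2 CPM to 3790 ± 62.1 CPM, and its difference between lines, -7.90 ± 0.0515 (edgeR adjusted p = 5.76e-52), had the smallest p of all genes. LIPG was at 4.40 ± 0.0676 in H1650 against -1.89 in PC9, and MSLN at -5.11 ± 0.0635 against 2.25. CD44, the hyaluronan receptor, measured 1348, 1345 and 1368 CPM in PC9 BrM and 1197, 1205 and 1203 CPM with S100A9-inh (-0.17 ± 0.0294), while in H1650 it went from 707 ± 5.29 CPM to 20.9 ± 2.9 CPM (-5.08 ± 0.0532). S100A9 was lower in both lines, at -1.87 and -1.11 ± 0.0521. ALDH1A1 rose in both, by 2.34 and 2.55 ± 0.27, and the difference of -0.22 ± 0.299 (edgeR adjusted p = 0.592) did not pass.

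**Figure D5:**
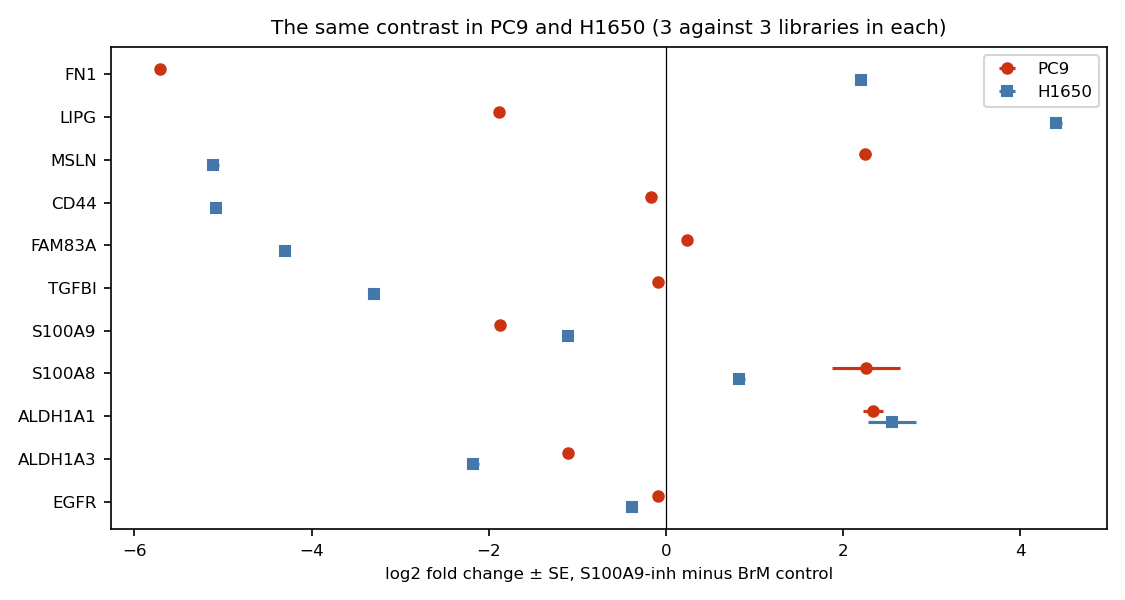
Log2 fold change ± SE (x axis), S100A9-inh minus BrM, of 11 genes in PC9 (circles) and H1650 (squares), 3 against 3 libraries in each. FN1 and LIPG were below 0 in PC9 and above 0 in H1650, MSLN the reverse, and S100A9, ALDH1A1 and ALDH1A3 had the same sign in both.

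Several defining markers of brain and immune cells had few or no counts, while other members of the same lists were expressed, and the part of these lists in the results was not tested. List sums are scaled to the plain library total and single genes to the TMM-adjusted one. Over all PC9 libraries the microglial genes C1QA, C1QB, C1QC and TYROBP, the astrocyte genes S100B and FABP7, and the oligodendrocyte gene OLIG2 had no count, and GFAP had 4, 9 and 5 counts over the BrM, Tr-BrM control and S100A9-inh groups. The microglia and myeloid list, with 3 of 17 markers past the filter, summed to 31.2 to 31.9 CPM in BrM and 20.5 to 23.1 CPM with S100A9-inh; CSF1R, a growth factor receptor gene, made up most of it and fell by 0.85, while ITGAM and LAPTM5 rose by 1.52 and 1.62 from 0.955 ± 0.26 CPM and 0.384 ± 0.0964 CPM. The astrocyte list, with 7 of 12 markers tested, summed to 221 to 228 CPM and 218 to 229 CPM: SOX9 fell by 0.56 and the glutamate transporter SLC1A3 rose by 1.17. The fibroblast list, with LUM and THY1 at no count, summed to 27.3 to 27.7 CPM and 19.1 to 21.7 CPM, the endothelial list to 22.8 to 26.4 CPM and 24.1 to 29.2 CPM, the neuron list to 16.9 to 20.6 CPM and 20.3 to 24.9 CPM, and the T, B and NK cell list to 0.911 to 1.2 CPM and 1.93 to 2.47 CPM. The oligodendrocyte list summed to 187 to 195 CPM in BrM and 158 to 160 CPM with S100A9-inh, nearly all from the nucleotide phosphodiesterase gene CNP (116 ± 3.12 CPM and 97.3 ± 3.26 CPM) and the myelin gene MBP (74 ± 3.18 CPM and 57.3 ± 2.61 CPM), which both fell. In the neuron list MAP2, a microtubule protein gene, stood at 9.49 ± 1.1 CPM and rose by 0.53.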

How the data were processed

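Total RNA was poly-A selected and made into TruSeq-compatible libraries, as the protocols in the labels state. Each of the 2 deposited tables holds whole-number read counts per gene for 1 line, not normalized. STAR, the build GRCh38, R 4.0.1 and DESeq2 1.28.1 are named by the submitters' processing notes. Which counter, annotation release and strand setting the authors used was not given in the labels or files, so reads of overlapping or antisense genes may be mixed.

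Libraries were grouped by label. All 9 PC9 libraries entered 1 fit of edgeR 4.0.16 (R 4.3.3) with TMM scaling, filterByExpr on the groups and the quasi-likelihood test; p-values were adjusted by Benjamini-Hochberg over all tested genes, with a threshold of 0.05. H1650 was fitted the same way, and differences between lines were interaction contrasts in 1 fit of 18 libraries. The SE was taken as the size of the log2 fold change divided by the root of F. PC9 replicates varied little (common biological coefficient of variation 0.0433), so small changes pass. PC9 totals were 18.17 to 21.75 M counts; counting intervals cover counting error only. No replicates were identical, and chi-square per degree of freedom between PC9 replicates was at least 1.63, so each library counted as 1. On simulated counts of 15810 genes for the PC9 comparison, 85.1% of 67 genes changed 1.5-fold and 100% of 67 changed 2-fold were recovered. False calls were 4%. The simulation gave all genes 1 common spread and changed only genes above 1 CPM on average. Far fewer genes were changed in it than the 46.3% called in the data, so its rates need not hold for these data.

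Positions are from GENCODE 29 and promoters from a RefSeq table. Pseudoautosomal duplicate entries were left out. The comparison, the 42 gene lists and the tests were chosen with earlier results of these data known, and lists are described by counts and medians. The naming rule took S100A9, S100A8, ALDH1A1, ALDH1A3 and EGFR, the 12 largest rises and falls at 5 CPM or more without overlap, the 6 largest CPM gains and losses, up to 4 members per list by smallest p, and the 6 smallest interaction p-values. Further list members were named after their values were seen, and some genes are not reported here. Alternatives were other scalings and filters, DESeq2 1.42.0, thresholds on fold, the contrast's own groups alone, and each replicate left out. List counts without S100A9-inh replicate 1 and under other scalings were added after the data were seen.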

Additional observations from a re-analysis of the deposited data

Results flagged for a closer look

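Differences between PC9 and H1650 in the effect of S100A9-inh against BrM are given for 10 chosen genes, by the interaction contrast of edgeR over all 18 libraries. That contrast passed for 50.2% of all tested genes, other named genes such as OAS3 among them. Each value is the difference, PC9 minus H1650, with the log2 fold changes in PC9 and H1650 in parentheses. By edgeR the difference was -7.90 for FN1 (-5.71 and 2.20, adjusted p = 5.76e-52), -6.29 for LIPG (-1.89 and 4.40, adjusted p = 6.16e-41) and 7.36 for MSLN (2.25 and -5.11, adjusted p = 1.21e-40), which had opposite signs in the lines. By the same edgeR contrast it was 4.91 for CD44 (-0.17 and -5.08, adjusted p = 6.16e-41), 4.54 for FAM83A (0.24 and -4.30, adjusted p = 1.51e-37) and 3.22 for TGFBI (-0.09 and -3.30, adjusted p = 1.73e-37), genes with small changes in PC9 and large falls in H1650. These 6 were chosen for the smallest interaction p. For the genes of the series' own question edgeR gave 1.06 for ALDH1A3 (-1.11 and -2.18, adjusted p = 1.12e-13), -0.76 for S100A9 (-1.87 and -1.11, adjusted p = 5.59e-11), 0.29 for EGFR (-0.09 and -0.38, adjusted p = 7.55e-07) and 1.43 for S100A8 (2.26 and 0.83, adjusted p = 0.00326). The S100A8 difference rests on 13 counts in PC9 BrM and was 0.95 (edgeR adjusted p = 0.0581) without PC9 BrM control replicate 3. No outlier test of single genes was run within the groups of 3 libraries.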

How the results depend on the processing

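No paired analysis was possible because the labels give the groups no shared replicate numbers, and the numbers used here only name libraries. The PC9 count of 7489 called genes ran from 6347 (DESeq2) to 7569 over 7 other scalings, filters, tests and sample sets, and from 6607 to 7677 with single replicates left out. A bar of at least 1 on the log2 scale left 1197 genes, and glmTreat against a 1.5-fold change 1162. The H1650 count of 11416 ran from 10240 to 11789 (10639 to 11260 with single replicates left out), and the count of 9584 differences between lines from 9031 to 9584 (9098 to 9474). Upper-quartile scaling split the PC9 calls into 4387 higher and 3182 lower, and library size alone into 4188 and 3307. The 178 genes of the naming rule were run under the other scalings, filters and sample sets, DESeq2 and single replicates left out. Of these, 175 kept direction and call. EGFR, GLUL and TGFBI did not, and the cause was not tested. List members named after their values were seen, such as SMAD7, LAMA3 and ID1, were not run in this way. The fold thresholds were not applied gene by gene. Of 11 named differences between lines 10 kept theirs, with S100A8 the exception. Under the other scalings the list medians that changed sign or reached 0 were those of the cholesterol and EGFR family lists (each -0.02, and 0.03 with the upper quartile), of p53 targets (-0.03 and 0.02) and of brain metastasis genes (-0.05 and 0.00). Few counts in near-silent genes and 3 libraries per group limit precision.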
